A study of Mus musculus with 2 samples.

Results

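DNA replication and mitosis genes were followed in CD45-positive leukocytes of tumour-bearing mouse lungs, in a library from mice given diphtheria toxin (DT) and a library from mice given PBS. The genes are named cell cycle genes of 2 lists, 20 of replication and 22 of mitosis. Of these 42 genes, 41 had a column among the 16184 gene columns of both tables, 19 for replication and 22 for mitosis. The replication gene Fen1 was not analysed here.

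All mice were of the Scgb1a1cre/iDTR strain, in which a tamoxifen-switched Cre under the club cell gene Scgb1a1 turns on a diphtheria toxin receptor, so that the toxin removes club cells, the secretory cells of the airway lining. All received HKP1 cells, a mouse lung adenocarcinoma line, by tail vein, tamoxifen at 2 mg per 20 g on days 3 to 7, anti-PD-1 at 250 µg per mouse on day 6, and lung irradiation of 4 Gy on each of 3 days, days 10 to 12. The DT mice also received 2 doses of diphtheria toxin at 600 ng per 20 g on days 8 and 9, and the PBS mice received PBS in its place by the sample title and the series design; the protocol text given for both libraries lists the toxin. Lungs were taken 24 to 48 h after irradiation, and live CD45-positive cells of 4 mice per group were sequenced as 1 droplet library per group with 3′ tags. No label ties a cell to a mouse, so no spread between animals could be measured. No test between DT and PBS is therefore given, and every interval below covers counting error alone.

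A cell that divides copies its DNA in S phase and separates the copies in mitosis. The replication genes serve the first step: the MCM proteins form the helicase that opens DNA, Cdc6 and Cdt1 load it at origins, Gins2 is a part of the active helicase, Pcna is the clamp that holds polymerases, Rpa2 binds single strands, and Rrm1, Rrm2, Tyms, Tk1 and Dut supply nucleotides. The mitosis genes serve the second: Cdk1 with the cyclins Ccna2, Ccnb1 and Ccnb2 drives entry, Plk1, Aurka, Aurkb and Bub1 are mitotic kinases, Cdc20 and Ube2c work with the anaphase-promoting complex, Cenpa, Cenpe, Cenpf and Birc5 act at centromeres, and Kif11, Kif23, Tpx2, Nusap1 and Hmmr act on the spindle or in cytokinesis. E2F factors are known to drive replication genes in late G1 and S phase, and complexes bound at CHR elements near CCAAT boxes are known to drive many mitosis genes later in the cycle.

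The promoters of the 2 lists differed in the letters they hold. RefSeq promoters of GRCm38.p6, from 250 bases before to 50 bases after the start, were found for 35 of the 41 genes. An E2F motif (TTTCCCGC, TTTCGCGC, TTTGCCGC or TTTGGCGC, on either strand) stood in 7 of 17 replication genes (41.2%) and in 1 of 18 mitosis genes (5.56%), beside 2.6% of 27025 genes. A CHR motif (TTTGAA or TTCGAA, on either strand) stood in 2 of 17 replication genes (11.8%) and in 14 of 18 mitosis genes (77.8%), beside 21.7% of all genes. CCAAT, on either strand, stood in 11 of 17 replication genes (64.7%) and 16 of 18 mitosis genes (88.9%), beside 41.1% of all genes. The 4 promoters below are shown because they hold these patterns: Mcm6 and Mcm5 an E2F motif and no CHR motif, Cdc20 a CHR motif and no E2F motif, and Cdk1, the 1 mitosis gene with an E2F motif, both. Each line gives the 160 bases before the start, 5′ to 3′ on the gene's strand, with matches in capitals; in Mcm6 and Mcm5 a run of capitals joins 2 overlapping E2F matches on opposite strands. The stretches are chr1:128359706-128359865 on the minus strand for Mcm6, chr8:75109349-75109508 on the plus strand for Mcm5, chr10:69352913-69353072 on the minus strand for Cdk1 and chr4:118437344-118437503 on the minus strand for Cdc20. A match is a description of letters and was not tied to binding here.
Mcm6: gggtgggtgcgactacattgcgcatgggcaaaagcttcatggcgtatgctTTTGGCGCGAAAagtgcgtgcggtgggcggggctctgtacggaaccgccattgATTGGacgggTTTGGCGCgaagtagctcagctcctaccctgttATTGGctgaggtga
Mcm5: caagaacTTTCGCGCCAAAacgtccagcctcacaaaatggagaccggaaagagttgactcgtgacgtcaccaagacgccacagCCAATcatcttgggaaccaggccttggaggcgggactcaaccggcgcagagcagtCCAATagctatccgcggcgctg
Cdk1: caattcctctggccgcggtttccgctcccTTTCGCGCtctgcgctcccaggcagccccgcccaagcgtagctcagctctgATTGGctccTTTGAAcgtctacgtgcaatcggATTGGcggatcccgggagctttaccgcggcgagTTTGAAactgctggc
Cdc20: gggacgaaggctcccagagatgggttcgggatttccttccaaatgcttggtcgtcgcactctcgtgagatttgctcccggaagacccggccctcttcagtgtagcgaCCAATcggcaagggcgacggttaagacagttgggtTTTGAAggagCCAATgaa

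The DT table held 6203 cells with 27896059 transcript molecules (unique molecular identifiers, UMIs), against 5702 PBS cells with 31089434. After leaving out cells under 200 genes or 500 UMIs, 5896 DT cells and 5651 PBS cells were kept, with a median of 3052 UMIs per DT cell and 3749 per PBS cell. DT cells were thus shallower, and 8 cell barcodes occurred in both libraries. Cells of both sexes were present in each library: 903 DT cells had Y-linked UMIs and no Xist UMI (called male) and 1926 had the reverse (called female), against 2472 male-called and 362 female-called PBS cells. The other 3067 DT cells and 2817 PBS cells were uncalled and shallower, with medians of 2370 UMIs in DT and 2905 UMIs in PBS. Called cells were mostly female in DT and mostly male in PBS. Treatment and sex therefore cannot be told apart in ratios not split by sex. Cells were sorted by lineage on at least 1 UMI of a gate gene, and overlaps were kept: 1278 DT cells and 1238 PBS cells passed more than 1 gate. The cells of the Csf3r with S100a8 gate, neutrophils by their markers (summed neutrophil marker level of 58020 CPM in DT and 62130 CPM in PBS), serve as a comparison, since mature neutrophils do not divide. They do not measure free RNA alone: 33.7% of the gate's cells in DT and 41.0% in PBS also had Csf1r UMIs, and its richest cell held 188 mitosis UMIs in DT and 137 in PBS. A level is given as CPM, the UMIs of a gene scaled to a fixed total of the UMIs of its gate, and because each UMI is 1 transcript, levels are not divided by gene length.

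Over all kept cells the 2 lists stood close in the 2 libraries. The 19 replication genes summed to 527 CPM in DT and 512 CPM in PBS, with a ratio of 1.03 (95% interval 1.01 to 1.05), and the 22 mitosis genes to 396 CPM in DT and 422 CPM in PBS, with a ratio of 0.940 (0.917 to 0.965). None of the 41 genes passed 1.5-fold in either direction with an interval without 1, against 11% of all 15928 genes with at least 20 UMIs. The highest level was that of the clamp gene Pcna, with 91.2 CPM in DT and 79.4 CPM in PBS, and the lowest that of the checkpoint kinase gene Bub1, with 1.84 CPM in DT and 2.41 CPM in PBS. The gene furthest above a ratio of 1 was Ung, a uracil-DNA glycosylase of base repair, with 10.4 CPM in DT and 8.21 CPM in PBS, 1.27-fold (1.07 to 1.51). The gene furthest below it was Aurkb, the kinase of the chromosome passenger complex, with 8.89 CPM in DT and 12.3 CPM in PBS, 0.721-fold (0.612 to 0.848). The 2 sex-called classes stood in opposite orders. Male-called cells held mitosis genes at 302 CPM in DT and 554 CPM in PBS, and female-called cells at 571 CPM in DT and 267 CPM in PBS. In each library the more frequent of the 2 classes had the higher level and also the deeper cells, with medians of 5258 UMIs for female-called DT cells and 5243 UMIs for male-called PBS cells.

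Few cells held most of the mitosis transcripts. In DT 46 of 5896 cells held 50% of the mitosis UMIs, and in PBS 47 of 5651 cells did, against 218 cells in each library for the replication UMIs. Most mitosis UMIs lay in cells with at least 3 other mitosis genes: all mitosis genes but Cenpa and Kif23 had at least the share of Aurka, 57.7% in DT and 73.7% in PBS. Birc5, the survivin gene, had 93.8% of its UMIs there in DT and 96.9% in PBS. Cenpa, the histone variant of centromeres, had 44.2% in DT and 46.6% in PBS, and Kif23, the kinesin of cytokinesis, 25.1% in DT and 33.8% in PBS. Replication genes were spread more widely: the helicase loader gene Cdt1 had 22.4% of its UMIs there in DT and 20.8% in PBS, and Pcna 30.7% in DT and 32.2% in PBS. Rrm2, a subunit of ribonucleotide reductase, was set apart from the other replication genes with 88.8% in DT and 90.9% in PBS.

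**Figure D1:**
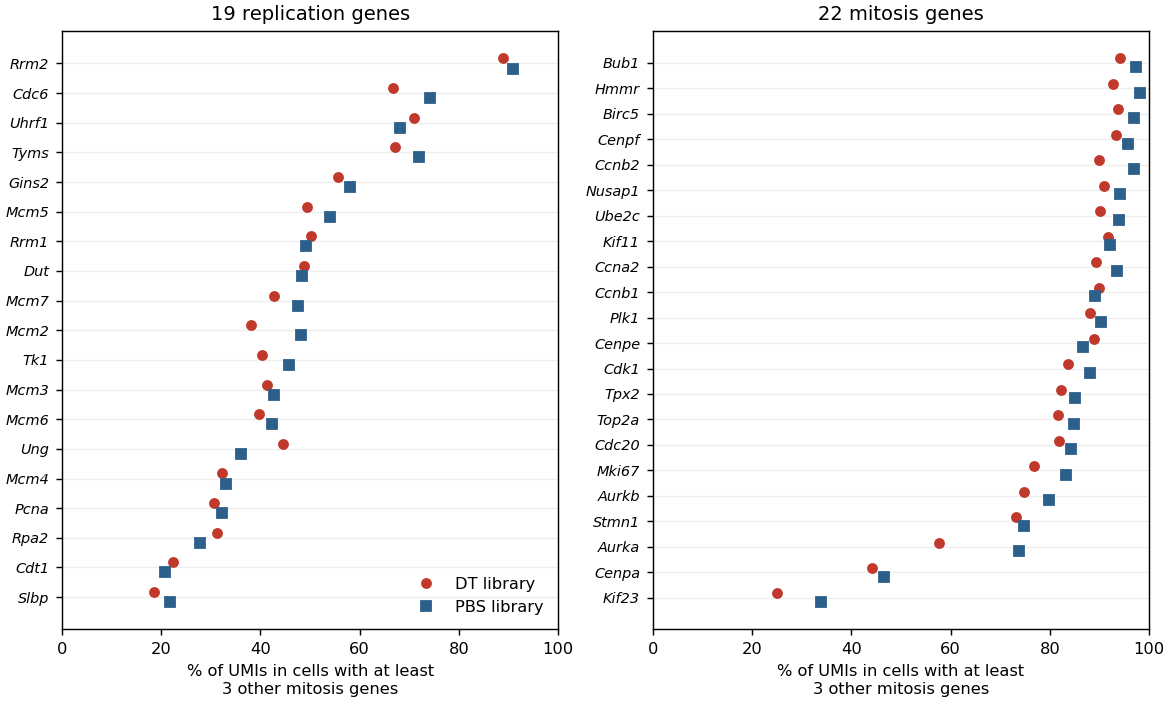
Percent of each gene's UMIs that lay in cells with at least 3 other mitosis genes, 1 row per gene, replication genes left and mitosis genes right, in the DT library (circles) and the PBS library (squares). Birc5 sits at 93.8% in DT and 96.9% in PBS, Kif23 at 25.1% in DT and 33.8% in PBS, and among replication genes Rrm2 stands highest.

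Kif23 was also found in neutrophil-gate cells that passed no gate of another lineage (877 in DT, 542 in PBS). In these cells Kif23 stood at 106 CPM in DT and 106 CPM in PBS, in 165 of the DT cells and 114 of the PBS cells, while Birc5 stood at 7.63 CPM in DT and 11.8 CPM in PBS and the topoisomerase gene Top2a at 7.63 CPM in DT and 14.6 CPM in PBS. In Cd79a-gate cells that passed no gate of another lineage Kif23 was at 7.44 CPM in DT and 5.50 CPM in PBS. Kif23 thus formed 62.0 of the 212 CPM of mitosis genes in the whole neutrophil gate in DT and 53.8 of 218 CPM in PBS.

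The order of the lineages was much alike in both libraries. Replication genes were highest in the Foxp3 gate (Foxp3 is the regulatory T cell factor) with 1637 CPM in DT and 1161 CPM in PBS. Next came the Cd8b1 gate, of CD8 T cells, with 1070 CPM in DT and 964 CPM in PBS, and the Cd4 gate with 914 CPM in DT and 840 CPM in PBS. The Ncr1 gate, of natural killer cells, had 691 CPM in DT and 675 CPM in PBS. The Flt3 gate, of dendritic cells and progenitors, had 520 CPM in DT and 582 CPM in PBS, and the Cd79a gate, of B cells, 457 CPM in DT and 473 CPM in PBS. Lowest were the C1qa gate, of macrophages, with 326 CPM in DT and 395 CPM in PBS, the Csf1r gate, of monocytes and macrophages, with 299 CPM in DT and 318 CPM in PBS, and the neutrophil gate with 267 CPM in DT and 244 CPM in PBS. The counting intervals of neighbours in this order did not overlap in either library, but the gates share cells. Of the C1qa-gate cells 77.3% in DT and 75.8% in PBS also passed the Csf1r gate. In cells that passed no gate of another lineage the Csf1r gate had 281 CPM and the C1qa gate 279 CPM in PBS. The rest of the order held there in both libraries.

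The mitosis genes kept that order with a few exceptions. The Foxp3 gate had 2009 CPM in DT and 1451 CPM in PBS, the Cd4 gate 940 CPM in DT and 876 CPM in PBS, and the Cd8b1 gate 859 CPM in DT and 804 CPM in PBS. The Ncr1 gate had 647 CPM in DT and 466 CPM in PBS, the Flt3 gate 338 CPM in DT and 1003 CPM in PBS, and the Cd79a gate 260 CPM in DT and 402 CPM in PBS. The C1qa gate had 181 CPM in DT and 215 CPM in PBS, and the Csf1r gate 152 CPM in DT and 160 CPM in PBS. Both stood below the neutrophil gate, though in PBS the C1qa and neutrophil intervals overlapped. Kif23 formed a large part of the neutrophil sum, as given above. In the C1qa gate Kif23 had 10.1 CPM in DT and 11.7 CPM in PBS, and its part in this order was not tested. The Flt3 gate thus stood below Ncr1 in DT and above Cd4 in PBS. In cells that passed no gate of another lineage the Flt3 gate had 357 CPM in DT and 507 CPM in PBS. The Ncr1 gate there had 755 CPM in DT and 622 CPM in PBS, so the PBS rank of Flt3 depended on the cells counted. The balance of the lists differed between gates: replication CPM over mitosis CPM was 0.815 in DT and 0.800 in PBS in the Foxp3 gate, and 1.98 in DT and 1.99 in PBS in the Csf1r gate.

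**Figure D2:**
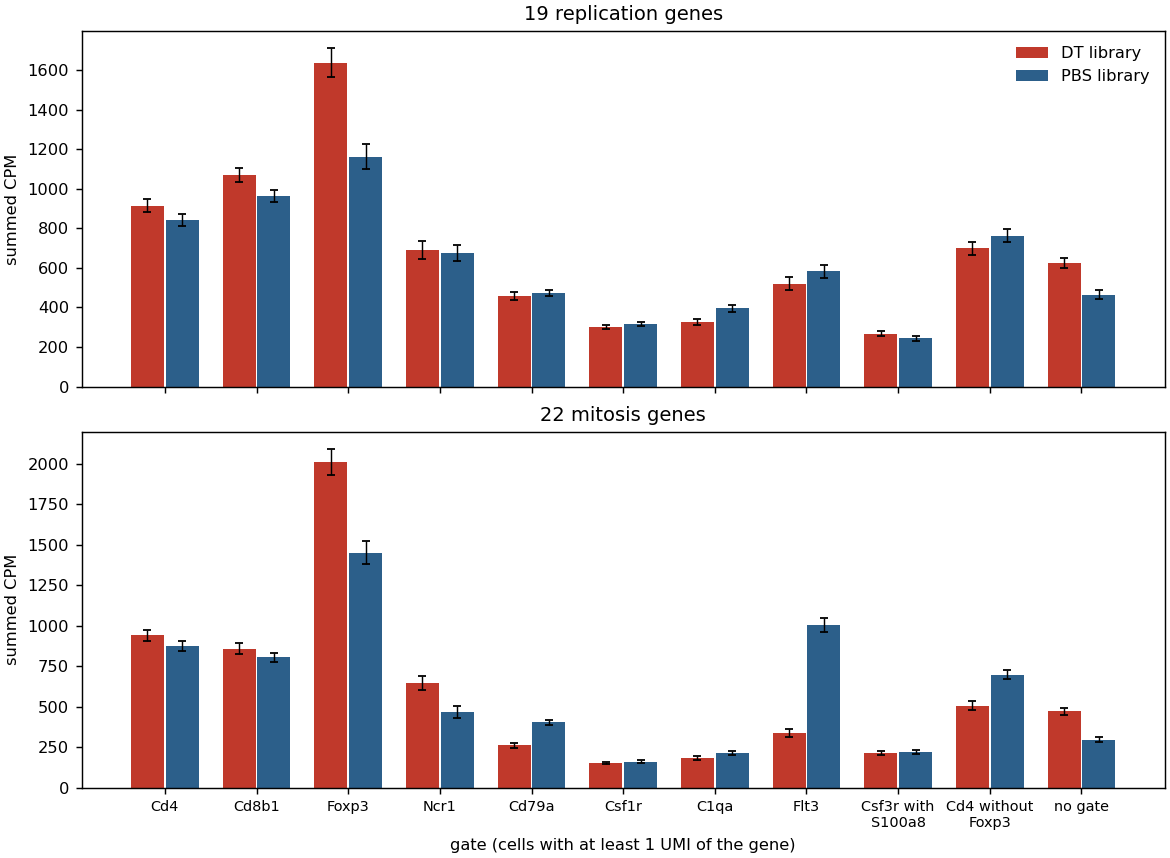
Summed CPM of the 19 replication genes (top) and the 22 mitosis genes (bottom) in each gate, DT library left and PBS library right, with exact Poisson 95% intervals that cover counting error alone. The Foxp3 gate is highest for both lists, and the Flt3 gate has 338 CPM of mitosis genes in DT and 1003 CPM in PBS.

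Depth differed between gates, so shares of cells were counted after each cell was thinned at random to 1000 UMIs, leaving out 309 DT cells and 202 PBS cells. Cells with at least 2 mitosis genes made up 2.42% of DT cells (135 of 5587) and 2.59% of PBS cells (141 of 5449). Unthinned, these shares were 9.38% in DT and 8.74% in PBS. In the neutrophil gate they were 0.828% in DT and 1.47% in PBS after thinning, at a median of 2414 UMIs in DT and 2792 UMIs in PBS before it. The Foxp3 gate had 13.6% in DT (exact Clopper-Pearson interval 8.83 to 19.7%) and 12.0% in PBS (7.47 to 17.9%), at a median of 5205 UMIs in DT and 4245 UMIs in PBS. The Cd8b1 gate had 6.56% in DT and 7.28% in PBS and the Cd4 gate 6.79% in DT and 7.33% in PBS. The Csf1r gate, with 0.950% in DT and 1.15% in PBS, and the Cd79a gate, with 1.02% in DT and 1.36% in PBS, were within the intervals of the neutrophil gate, so their shares could not be told apart from those of that gate at this depth. Single Cd79a-gate cells nevertheless held up to 229 mitosis UMIs in DT and 339 in PBS.

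Replication genes were seen in more cells. At least 2 of them were found in 6.62% of thinned DT cells and 6.15% of thinned PBS cells, against 1.59% in DT and 1.66% in PBS in the neutrophil gate. Cells with at least 2 mitosis genes held a mean of 2.49 replication UMIs in DT and 2.48 in PBS after thinning, and the other cells 0.356 in DT and 0.333 in PBS. At least 2 genes of both lists were found in 75 DT cells and 74 PBS cells, of replication alone in 295 DT cells and 261 PBS cells, and of mitosis alone in 60 DT cells and 67 PBS cells. Before thinning, the cells with at least 2 mitosis genes were deeper than the others, with medians of 8045 against 3190 UMIs in DT and 10734 against 3828 UMIs in PBS. Of these mitosis cells the Cd4 gate held 25.2% in DT and 26.2% in PBS, the Cd8b1 gate 23.7% in DT and 27.0% in PBS, and the Foxp3 gate 17.04% in DT and 14.2% in PBS, while the Foxp3 gate held 3.03% of all thinned cells in DT and 3.07% in PBS.

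**Figure D3:**
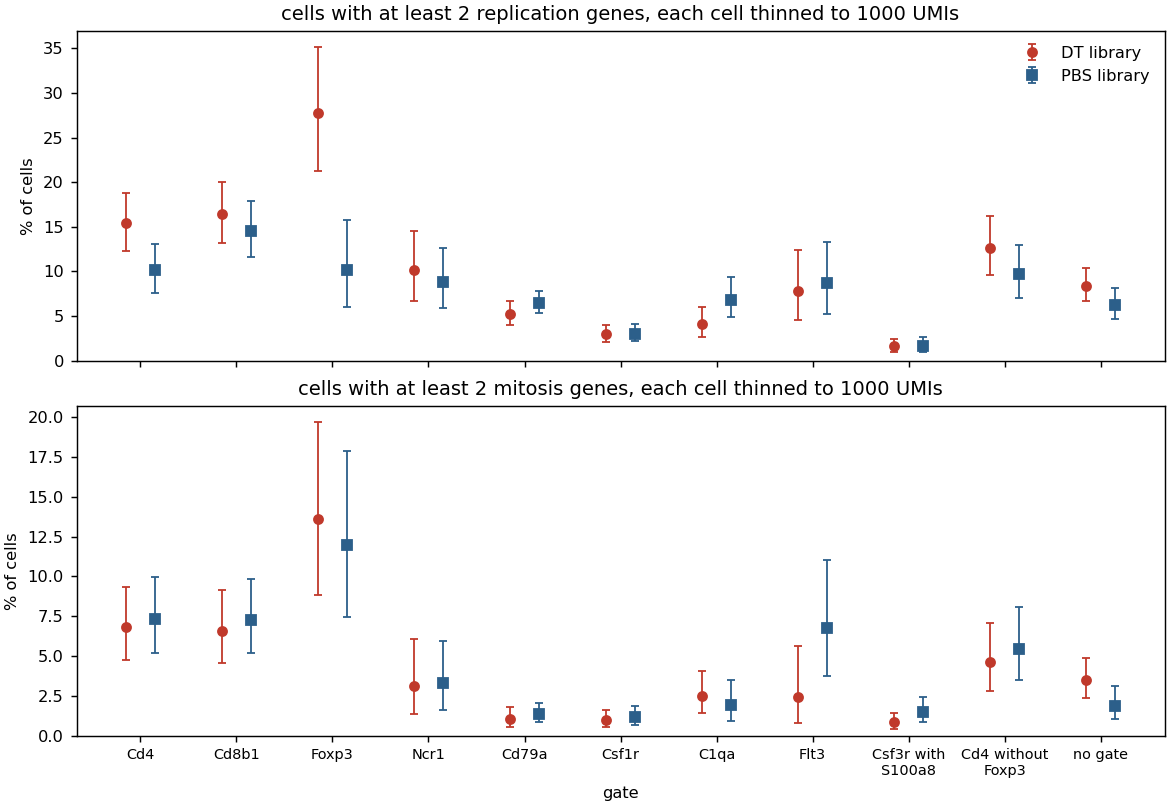
Percent of cells with at least 2 replication genes (top) or at least 2 mitosis genes (bottom) after each cell was thinned to 1000 UMIs, by gate, DT (circles) left and PBS (squares) right, with exact Clopper-Pearson 95% intervals. The Foxp3 gate has 27.8% of DT cells and 10.2% of PBS cells for replication genes, and 13.6% of DT cells and 12.0% of PBS cells for mitosis genes.

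In the Foxp3 gate, 172 DT cells and 169 PBS cells, both lists were higher in DT. The replication sum was 1.41-fold (1.31 to 1.51) and the mitosis sum 1.38-fold (1.30 to 1.48). Past 1.5-fold with an interval without 1, 6 of 19 replication genes were higher in DT (Mcm2, Mcm3, Rrm1, Gins2, Uhrf1 and Ung) and 7 of 21 tested mitosis genes (Top2a, Ccnb1, Ccnb2, Ccna2, Cenpf, Kif11 and Cdc20), against 4.92% of all genes tested in this gate. None of the 40 was lower in DT, against 3.06% of all genes. The median log2 ratio was 0.49 for replication and 0.46 for mitosis, beside 0.05 for all genes tested. Among the other cell cycle genes 8 of 35 of the origin and polymerase list, 11 of 56 of the spindle and chromosome list and 4 of 25 regulators were higher in DT, and none was lower.

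Among the replication genes of the Foxp3 gate, Ung had 23.6 CPM in DT and 5.45 CPM in PBS, 4.33-fold (1.76 to 12.8), from 28 UMIs in DT and 6 UMIs in PBS. Gins2 had 31.2 CPM in DT and 11.8 CPM in PBS, 2.64-fold (1.37 to 5.41). Uhrf1, which helps maintain DNA methylation behind the fork, had 52.2 CPM in DT and 27.2 CPM in PBS, 1.92-fold (1.22 to 3.07). The 6 MCM genes together had 623 CPM in DT and 430 CPM in PBS, 1.45-fold (1.29 to 1.63), and all 6 had ratios above 1, from 1.30 for Mcm6 to 1.84 for Mcm3. Rrm2 did not follow them, with 78.3 CPM in DT and 80.8 CPM in PBS, 0.969-fold (0.717 to 1.31).

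Among its mitosis genes, Ccnb1, the cyclin that binds Cdk1 at mitotic entry, had 44.6 CPM in DT and 18.2 CPM in PBS, 2.46-fold (1.44 to 4.34). Cdc20, the activator of the anaphase-promoting complex, had 58.1 CPM in DT and 25.4 CPM in PBS, 2.28-fold (1.45 to 3.68). Kif11, the motor that keeps spindle poles apart, had 53.9 CPM in DT and 26.3 CPM in PBS, 2.05-fold (1.30 to 3.29). Ube2c, the ubiquitin-conjugating enzyme that works with the same complex as Cdc20, stood at 174 CPM in DT and 172 CPM in PBS, 1.02-fold (0.830 to 1.24). The proliferation marker Mki67 had 232 CPM in DT and 159 CPM in PBS, 1.46-fold (1.205 to 1.777), just under the threshold used. Of the other cell cycle genes the spindle gene Aspm had 26.9 CPM in DT and 7.27 CPM in PBS, and the kinase gene Nek2 20.2 CPM in DT and 3.63 CPM in PBS.

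Several measurements bear on the Foxp3 result. The share of thinned cells with at least 2 replication genes was 27.8% in DT (47 of 169) and 10.2% in PBS (17 of 167), 23.1% in DT and 13.2% in PBS in another random draw, and 32.2% in DT and 29.4% in PBS at 2000 UMIs. The 4 regulatory T cell markers, Foxp3 among them, summed to 2940 CPM in DT and 2346 CPM in PBS in this gate, and the 5 neutrophil markers to 4107 CPM in DT and 2257 CPM in PBS, with none of either list at 0; the part of either in the result was not tested. Without the 5 cells richest in each list in each library the ratios were 1.53 for replication and 1.49 for mitosis. Among male-called cells (14 in DT, 98 in PBS) the mitosis ratio was 0.664, on the other side of 1, and the replication ratio 2.46. Among female-called cells (105 in DT, 7 in PBS) the mitosis ratio was 6.22 and the replication ratio 0.893. When gate and genes were read after thinning the mitosis ratio was 2.75. Cells with both Foxp3 and Cd4 UMIs had mitosis genes at 2539 CPM in DT and 1667 CPM in PBS, and Foxp3 cells without a Cd4 UMI at 1324 CPM in DT and 1101 CPM in PBS.

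Cd4-gate cells without a Foxp3 UMI, 416 in DT and 425 in PBS, showed the opposite for mitosis genes. Their median depth was 4253 UMIs in DT and 4631 UMIs in PBS. At such depth a cell that expresses Foxp3 can lack a Foxp3 UMI, so this set is not free of regulatory T cells. The part of missed Foxp3 UMIs in the 2 opposite ratios was not tested. The mitosis sum came to 506 CPM in DT and 698 CPM in PBS, 0.725-fold (0.676 to 0.778), and the replication sum 698 CPM in DT and 763 CPM in PBS, 0.916-fold. Lower in DT past 1.5-fold were 10 of 22 mitosis genes, against 2.44% of all genes, and none was higher. Stmn1, which destabilises microtubules, had 58.8 CPM in DT and 101 CPM in PBS, 0.581-fold (0.474 to 0.711). Ccnb2, a mitotic cyclin, had 15.8 CPM in DT and 33.7 CPM in PBS, 0.469-fold (0.316 to 0.685). Of 18 replication genes the nucleotide enzymes Tyms and Rrm1 were lower in DT, and Cdt1 and Rpa2 higher, against 4.61% of all genes higher. Rpa2 had 63.6 CPM in DT and 38.3 CPM in PBS, 1.66-fold (1.30 to 2.13). Thinned shares with at least 2 mitosis genes were 4.60% in DT and 5.45% in PBS, within each other's intervals. When gate and genes were read after thinning the mitosis ratio was 1.64, on the other side of 1. Thinning loses both Cd4 and Foxp3 UMIs, so that ratio is for another set of cells. Among male-called cells (41 in DT, 235 in PBS) mitosis genes stood at 146 CPM in DT and 728 CPM in PBS, 0.201-fold. Of the mitosis UMIs, 50% lay in 6 DT cells and 7 PBS cells. For replication the ratio was 2.80 among female-called cells, of which DT had 210 and PBS 23.

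With Foxp3 cells included, the Cd4 gate (504 cells in DT, 508 in PBS, with medians of 4456 UMIs in DT and 4830 UMIs in PBS) had ratios of 1.09 for replication and 1.07 for mitosis. Kif11 was higher in DT, with 23.9 CPM against 15.4 CPM in PBS, where 4.37% of all genes were higher, and Bub1 lower, with 2.23 CPM in DT and 7.01 CPM in PBS, where 2.05% were lower. The Cd8b1 gate (490 cells in DT, 529 in PBS, with medians of 5281 UMIs in DT and 6171 UMIs in PBS) had ratios of 1.11 for replication and 1.07 for mitosis. Ung was higher there, with 28.7 CPM in DT and 19.1 CPM in PBS, against 3.93% of all genes, and the kinetochore motor gene Cenpe lower, with 12.9 CPM in DT and 24.0 CPM in PBS, against 2.59%. These counts are near the background of their gates. Among male-called cells the mitosis ratio was 0.385 in the Cd4 gate and 0.621 in the Cd8b1 gate, on the other side of 1.

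In the Ncr1 gate, 258 DT cells and 306 PBS cells, replication genes stood level and mitosis genes were higher in DT. Median depth was 3627 UMIs in DT and 3670 UMIs in PBS. The mitosis ratio was 1.39 (1.26 to 1.54), and 4 of 17 mitosis genes passed 1.5-fold upward (Birc5, Ube2c, Ccnb2 and Ccna2), against 3.45% of all genes. Ube2c had 59.98 CPM in DT and 22.7 CPM in PBS, 2.65-fold (1.76 to 4.06), from 9 DT cells and 4 PBS cells. The replication ratio was 1.02 (0.935 to 1.12), with Tyms and Gins2 lower in DT among 18 genes, against 3.18% of all genes. In this gate 3 DT cells and 4 PBS cells held 50% of the mitosis UMIs; without the top 5 cells of each library it came to 184 CPM in DT and 193 CPM in PBS. Among male-called cells (50 in DT, 138 in PBS) mitosis genes stood at 106 CPM in DT and 441 CPM in PBS, 0.241-fold, and among female-called cells (106 in DT, 18 in PBS) at 1142 CPM in DT and 76.3 CPM in PBS, 15.0-fold. For replication the ratio was 0.557 among male-called and 1.90 among female-called cells. Read after thinning, gate included, the mitosis ratio was 1.01. The top cells carried 153 to 391 natural killer marker UMIs in DT and 93 to 277 in PBS. Thinned shares were 3.11% in DT and 3.28% in PBS.

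In the Flt3 gate, 206 DT cells and 208 PBS cells, mitosis genes were lower in DT while replication genes were nearly level. Median depth was 8434 UMIs in DT and 9431 UMIs in PBS. The mitosis ratio was 0.337 (0.309 to 0.367), and all 21 tested mitosis genes were lower in DT past 1.5-fold, against 4.57% of all genes. The size of this ratio depended on the cells counted: it was 0.704 in cells that passed no gate of another lineage, 0.915 among male-called cells and 0.929 when gate and genes were read after thinning. The replication ratio was 0.893 (0.823 to 0.969), with Rrm2, Dut and Tk1 lower and Ung higher among 18 genes, against 4.74% of all genes higher. Ube2c had 17.2 CPM in DT and 125 CPM in PBS, 0.138-fold (0.0941 to 0.196). Plk1, the polo-like kinase, had 3 UMIs in DT and 35 UMIs in PBS, 0.0968-fold (0.0191 to 0.307). Top2a had 26.0 CPM in DT and 86.7 CPM in PBS, and the ratio nearest to 1 was that of Stmn1, with 81.8 CPM in DT and 132 CPM in PBS. Pcna, by contrast, had 93.1 CPM in DT and 85.0 CPM in PBS, and Mcm3 49.98 CPM in DT and 37.7 CPM in PBS, while Rrm2 had 6.37 CPM in DT and 30.4 CPM in PBS. Replication over mitosis was 1.54 in DT and 0.580 in PBS. Of the other cell cycle genes 39 of 53 of the spindle and chromosome list were lower in DT, and 8 of 35 of the origin and polymerase list.

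The Flt3-gate cells richest in mitosis genes carried B cell markers in PBS. The 3 PBS cells richest in mitosis genes had 339, 327 and 300 mitosis UMIs, among 28749, 25054 and 25916 UMIs in all, and carried Cd79a UMIs with 87, 125 and 99 B cell marker UMIs. The 3 DT cells richest in them had 158, 126 and 69 mitosis UMIs and carried 319, 186 and 287 dendritic marker UMIs and no B cell marker UMI. Over the gate the 4 B cell markers, none at 0, summed to 160 CPM in DT and 594 CPM in PBS, and the 9 dendritic markers to 7224 CPM in DT and 5753 CPM in PBS. Without the cells that passed both gates (18 in DT, 45 in PBS) the Flt3 mitosis sum came to 325 CPM in DT and 636 CPM in PBS, with a ratio of 0.511. Overlap with T cell gates also differed. The Cd8b1 gate shared 4 DT cells and 25 PBS cells with the Flt3 gate, and the Cd4 gate 12 DT cells and 22 PBS cells. With the Csf1r, Ncr1 and neutrophil gates the overlap was larger in DT. The part of each of these overlaps in the ratio was not tested. Thinned shares with at least 2 mitosis genes were 2.44% in DT (5 of 205) and 6.73% in PBS (14 of 208), with overlapping intervals, and 4 such DT cells and 9 such PBS cells had no Cd79a UMI.

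**Figure D4:**
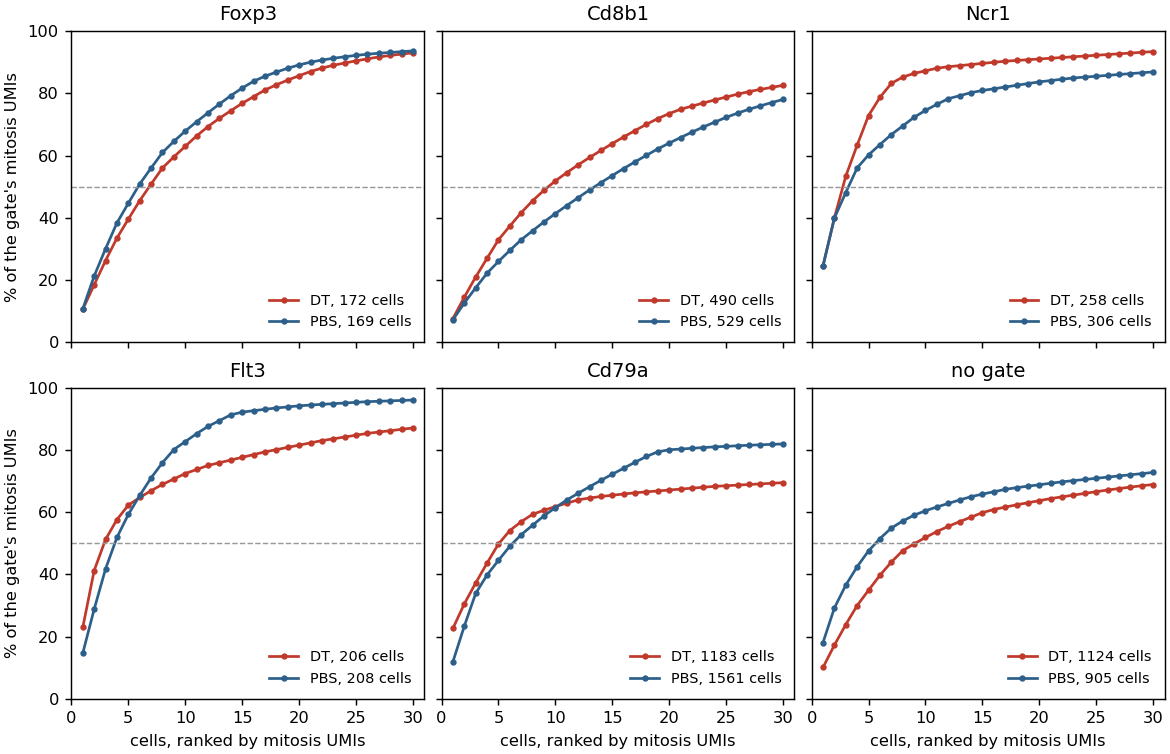
Cumulative percent of a gate's mitosis UMIs held by its cells, ranked from the richest cell (1) to the 30th, in 6 gates, DT and PBS as 2 lines, with a dashed line at 50%. In the Ncr1 and Flt3 gates 3 DT cells and 4 PBS cells reach it, and in the Foxp3 gate 7 DT cells and 6 PBS cells do.

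In the Cd79a gate, 1183 DT cells and 1561 PBS cells, mitosis genes were lower in DT and replication genes level. Median depth was 2491 UMIs in DT and 2972 UMIs in PBS. The mitosis ratio was 0.647 (0.601 to 0.695), and 11 of 21 mitosis genes were lower in DT, against 3.49% of all genes, and none higher, against 7.11%. Cdc20 had 5.13 CPM in DT and 14.2 CPM in PBS, 0.361-fold (0.211 to 0.587), Cdk1 6.67 CPM in DT and 16.8 CPM in PBS, and Ube2c 16.7 CPM in DT and 37.7 CPM in PBS. Cenpa stood at 49.0 CPM in DT and 46.5 CPM in PBS. The replication ratio was 0.966 (0.911 to 1.02), with Tyms and Rrm2 lower in DT among 19 genes. The same 3 PBS cells as in the Flt3 gate were the richest here too. Without the cells that also had Flt3 UMIs the mitosis sum came to 252 CPM in DT and 262 CPM in PBS, with a ratio of 0.962. In cells with no gate of another lineage it came to 229 CPM in DT and 200 CPM in PBS, with a ratio of 1.14 on the other side of 1. The ratio was 0.352 among male-called and 1.14 among female-called cells.

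The macrophage and monocyte gates had the lowest mitosis sums of the gates. In the C1qa gate, 622 DT cells and 541 PBS cells with medians of 8619 UMIs in DT and 9285 UMIs in PBS, the replication sum was 0.827-fold (0.778 to 0.879) and the mitosis sum 0.840-fold. Lower in DT were 5 of 19 replication genes (Tyms, Rrm2, Gins2, Uhrf1 and Dut), against 3.29% of all genes, and Dut, which keeps uracil out of DNA, had 27.3 CPM in DT and 51.0 CPM in PBS, 0.536-fold (0.439 to 0.652). Of the mitosis genes Mki67, Cenpf and Aurkb were lower and Cenpa higher, with 31.9 CPM in DT and 21.2 CPM in PBS, 1.51-fold (1.19 to 1.91), against 2.69% of all genes higher. Thinned replication shares were 4.12% in DT and 6.83% in PBS, with overlapping intervals. At least 2 mitosis genes were found in 15 of 607 thinned DT cells and 10 of 527 thinned PBS cells. In the neutrophil gate it was 12 of 1449 in DT and 15 of 1022 in PBS. The C1qa mitosis share was thus the higher in DT, unlike the C1qa mitosis sum, but it rests on few cells. Both ratios were on the other side of 1 in cells that passed no gate of another lineage, with replication at 302 CPM in DT and 279 CPM in PBS (1.08-fold) and mitosis at 195 CPM in DT and 149 CPM in PBS (1.30-fold). Among male-called cells they were 1.06 for replication and 1.59 for mitosis, and among female-called cells 1.49 for replication and 3.05 for mitosis, so neither direction held there. In the Csf1r gate, 1406 DT cells and 1415 PBS cells, the ratios were 0.942 for replication and 0.946 for mitosis. Its median depth was 6375 UMIs in DT and 7187 UMIs in PBS. Uhrf1 and Cenpf were lower there, against 4.11% of all genes lower, and none of the 41 was higher, against 3.11%.

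In the neutrophil gate, 1492 DT cells and 1058 PBS cells, the ratios were 1.09 for replication (1.01 to 1.17) and 0.969 for mitosis. The replication ratio was on the other side of 1 in cells that passed no gate of another lineage (139 CPM in DT and 185 CPM in PBS, 0.749-fold), among male-called cells (0.723) and without the cells of highest doublet score (0.681), and it was 3.17 among female-called cells. The mitosis ratio was 0.745 in the cells of no other lineage's gate and 7.98 among female-called cells, of which PBS had 16. Mcm5 was higher in DT, with 12.1 CPM against 7.65 CPM in PBS, where 3.75% of all genes were higher, and Rrm2 lower, with 4.66 CPM in DT and 9.15 CPM in PBS, where 3.47% were lower.

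Cells that passed no gate, 1124 in DT and 905 in PBS with medians of 2416 UMIs in DT and 3133 UMIs in PBS, had both lists higher in DT. The replication ratio was 1.34 (1.26 to 1.43) and the mitosis ratio 1.59 (1.47 to 1.72). Higher in DT were 5 of 19 replication genes (Mcm5, Rrm2, Gins2, Dut and Tk1) and 13 of 21 mitosis genes, against 6.13% of all genes, and none was lower, against 3.92%. Cdk1 had 21.3 CPM in DT and 7.54 CPM in PBS, 2.83-fold (1.81 to 4.55), and Rrm2 24.2 CPM in DT and 8.93 CPM in PBS, 2.71-fold (1.79 to 4.19). Plk1 had 23 UMIs in DT and 2 UMIs in PBS, 10.8-fold (2.68 to 94.8). The 4 epithelial or tumour markers, none at 0, were also higher, with a sum of 316 CPM in DT and 115 CPM in PBS. No-gate cells with such a marker UMI (131 in DT, 90 in PBS) held mitosis genes at 1377 CPM in DT and 527 CPM in PBS, and the DT cell richest in mitosis genes had 180 mitosis UMIs with 133 of these marker UMIs. In the cells without one (993 in DT, 815 in PBS) the mitosis sum came to 295 CPM in DT and 242 CPM in PBS, with a ratio of 1.22. Among male-called cells the no-gate mitosis ratio was 0.505, on the other side of 1, and among female-called cells 4.37. It was 0.939, also on the other side, when gate and genes were read after thinning. Cells that lose their gate UMIs in thinning then join this set, so that ratio is for other cells.

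**Figure D5:**
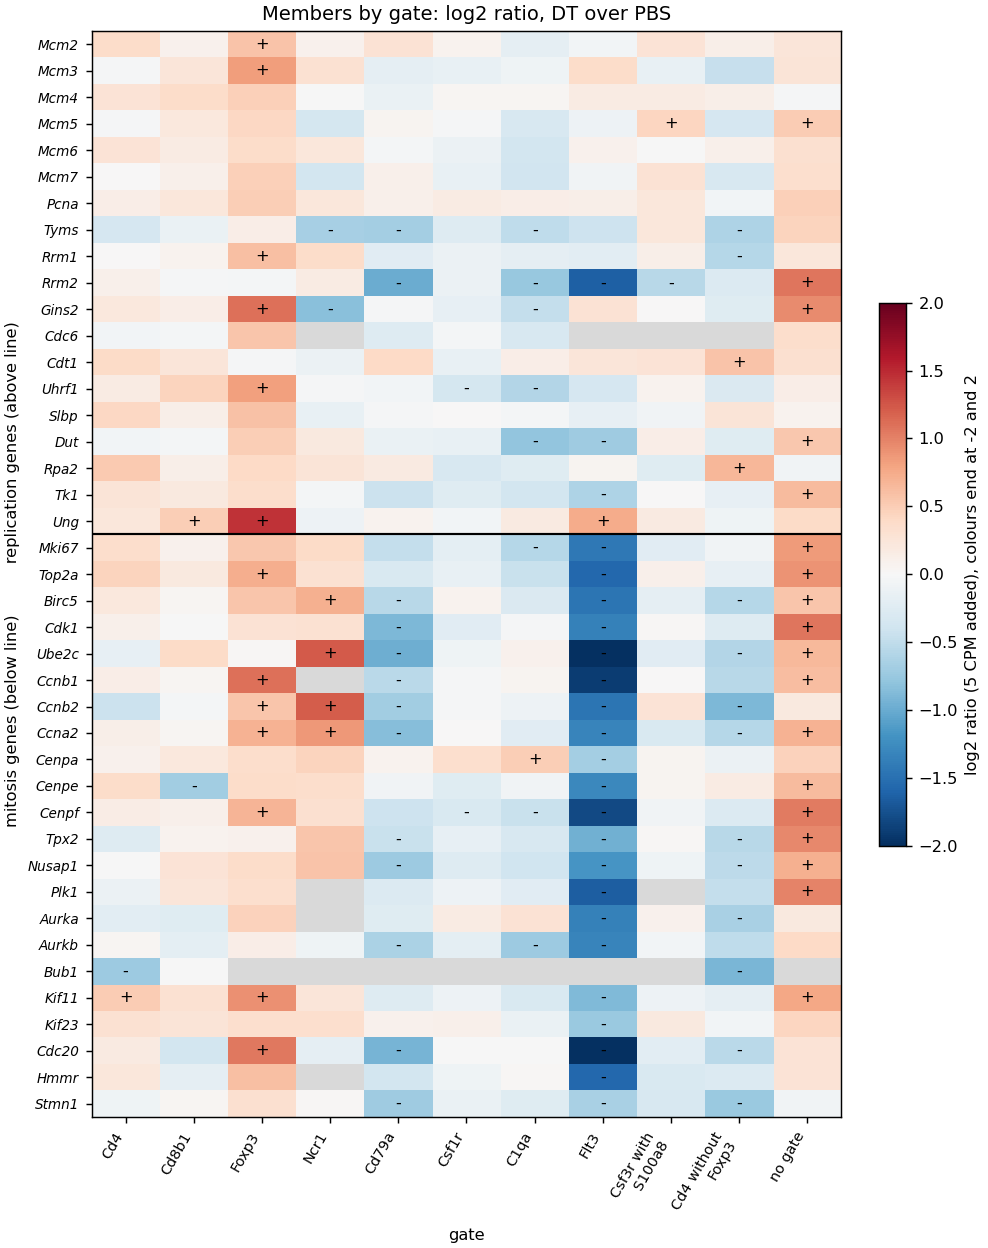
Log2 ratio of DT over PBS, with 5 CPM added to both, for each gene (rows) in each gate (columns), red for higher in DT and blue for lower. A plus or minus marks genes past 1.5-fold with an interval without 1, and grey marks genes under 20 UMIs; the Foxp3 column is red for 38 of 40 genes, and the mitosis rows are blue in the Flt3 column.

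Some of the 41 genes share their place with another annotated gene. In the GENCODE annotation of GRCm38, 17 were overlapped by another gene, and for 7 of them, Mcm7, Gins2, Cdt1, Tk1, Ube2c, Ccna2 and Cdc20, the 3′ end, where the tags fall, lay inside it. The overlapping gene was on the opposite strand for all of these but Cdt1, and it had a column in the tables for Mcm7, Gins2, Ccna2 and Cdc20. The sources used here do not say whether counting used the strand or how reads in shared stretches were assigned, so values of these 7 are less certain. In all comparisons a larger share of cycling cells and more RNA per cycling cell cannot be told apart from the summed levels.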

How the data were processed

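Live CD45-positive lung cells of 1 DT and 1 PBS library were analysed, 4 pooled mice each. Per the submitters' processing notes, Partek, STAR, Seurat and the mm10 build were used, and their roles are not stated there. The deposited values are log2 of CPM plus 1 per cell and gene, as the authors scaled them. The log was undone and each cell's smallest step was used to recover whole UMI counts; 100% of values above 0 came out whole within 1%.

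Cells were kept from 200 genes and 500 UMIs upward where mitochondrial UMIs did not pass 10%. Lineages were gated on 1 UMI of the gate gene. UMIs were summed per gate and library, and ratios were given with exact conditional binomial 95% intervals, shares with Clopper-Pearson intervals and levels with Poisson intervals, all for counting error alone. Genes with at least 20 UMIs over both libraries were counted as higher or lower at 1.5-fold with an interval without 1; log2 ratios had 5 CPM added. With 1 library a group no p-value is given. Scrublet marked 10 DT cells and 3 PBS cells, too few to have worked, and no cell was removed as a doublet. The alternative without the highest doublet scores used the scores of that same run, so it cannot show how far doublets affect the ratios. Every member could be named; of the other cell cycle genes, in a gate, the 3 highest and 3 lowest past the threshold could be. Motifs were searched by exact match. The members, gates and lists were chosen with earlier results of these data known. The ratio step was tested on simulated data with independent counts, which leave out the clustering of mitosis UMIs in few cells. Python 3.11.15, numpy 2.4.6, scipy 1.17.1, pandas 2.3.3 and scanpy 1.11.5 were used. Alternatives covered the cell filter, gates, thinning, weighting, scaling, free RNA, doublet scores, sex-called classes and single members. Reading a gate after thinning changes which cells pass it, so such ratios are not for the same cells as the main ones.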

Additional observations from a re-analysis of the deposited data

Results flagged for a closer look

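The ratio of DT over PBS differed between gates, and results are listed here where a gate's ratio was at least 1.2-fold to 1 side and another gate's as far to the other, each with an interval without 1. For replication genes the ratio was 1.41 in the Foxp3 gate and 1.34 in the cells of no gate, against 0.827 in the C1qa gate. For mitosis genes it was 1.38 in the Foxp3 gate, 1.39 in the Ncr1 gate and 1.59 in the cells of no gate, against 0.647 in the Cd79a gate, 0.337 in the Flt3 gate and 0.725 in the Cd4 gate without Foxp3 cells. These differences between gates were not tested, since each value comes from 1 library per group.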

How the results depend on the processing

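No paired analysis was possible because each group is 1 library. Of 24 list ratios all 24 kept their side of 1 with no cell filter and with at least 500 genes and 1000 UMIs, 23 under each other scaling, 22 without the highest doublet scores, 17 of 24 with gate and genes read after thinning, 15 of 24 among female-called and 12 of 24 among male-called cells, and 15 of 20 with exclusive gates. Of the ratios at least 1.2-fold from 1, these crossed 1: for mitosis, Cd79a with exclusive gates (1.14) and among female-called cells (1.14), no gate after thinning (0.939) and among male-called cells (0.505), Cd4 without Foxp3 after thinning (1.64), Foxp3 among male-called cells (0.664), and Ncr1 among male-called cells (0.241) and without the 5 richest cells (0.953); for replication, C1qa with exclusive gates (1.08) and among male-called (1.06) and female-called cells (1.49), Foxp3 among female-called cells (0.893), and no gate on the deposited log2 values (a mean difference of -0.0099). With exclusive gates the Flt3 mitosis ratio was 0.704. After thinning the replication ratio of the Foxp3 gate was 1.89 and the mitosis ratios were 2.75 in the Foxp3 gate, 0.756 in the Cd79a gate, 0.929 in the Flt3 gate and 1.03 over all cells. With each cell weighted the same the mitosis ratios were 1.496 in the Foxp3 gate, 0.891 in the Cd79a gate, 0.462 in the Flt3 gate, 2.29 in cells of no gate and 1.18 over all cells, and the replication ratio over all cells was 1.01. On the deposited log2 values the mean difference for replication over all cells was -0.057. Trimmed mean and median of ratios scaling gave 0.998 and 0.996 for replication and 0.912 and 0.910 for mitosis over all cells. Among male-called cells the mitosis ratios were 0.352 in the Cd79a gate, 0.915 in the Flt3 gate and 0.545 over all cells, and the replication ratios 2.46 in the Foxp3 gate and 0.883 over all cells. Among female-called cells the mitosis ratios were 6.22 in the Foxp3 gate, 0.435 in the Flt3 gate, 4.37 in cells of no gate and 2.13 over all cells, and the replication ratio 1.503 over all cells. Without the highest doublet scores, which come from the Scrublet run that marked too few cells, the Flt3 mitosis ratio was 0.238. Without Stmn1, also the gene with the most UMIs, it was 0.294 in the Flt3 gate and 1.83 in cells of no gate. The next alternatives were chosen after seeing the data. Without the 5 richest cells the ratios were 1.53 for replication and 1.49 for mitosis in the Foxp3 gate, and for mitosis 0.586 in the Cd79a gate and 1.98 in cells of no gate. Without cells of both the Flt3 and the Cd79a gate the mitosis ratios were 0.511 in the Flt3 and 0.962 in the Cd79a gate, and without epithelial or tumour marker cells 1.22 in cells of no gate. The replication share of the Foxp3 gate, 27.8% in DT and 10.2% in PBS, was 49.1% in DT and 41.3% in PBS for at least 1 gene, 14.2% in DT and 6.59% in PBS for at least 3 genes, 21.1% in DT and 6.45% in PBS with the gate read after thinning, 35.7% of 14 DT cells and 9.18% of 98 PBS cells among male-called cells, and 32.2% in DT and 29.4% in PBS at 2000 UMIs. The causes were not tested, and with 1 library per group nothing here measures the spread between mice.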

Other observations

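Among the other cell cycle regulators, 3 genes were among the highest ratios of their gates. Cdkn2a, a cell cycle inhibitor gene, had 66 UMIs in DT and 3 UMIs in PBS in the cells of no gate, 20.7-fold (6.79 to 103). The epithelial or tumour markers of these cells were also higher in DT, as given above. Ccnd3, a D-type cyclin of G1, had 159 CPM in DT and 74.5 CPM in PBS in the Cd79a gate, 2.13-fold (1.89 to 2.40), while the mitosis genes of that gate were lower in DT. Cdk6, the kinase that D-type cyclins bind, had 188 CPM in DT and 119 CPM in PBS in the Cd4 gate without Foxp3 cells, 1.58-fold (1.38 to 1.82).

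In the Cd79a gate the kinetochore gene Ndc80 had 18.5 CPM in DT and 10.6 CPM in PBS, 1.75-fold (1.25 to 2.45), and Cdca3 3.59 CPM in DT and 10.1 CPM in PBS, 0.354-fold (0.185 to 0.634). In the Flt3 gate the shugoshin gene Sgo2a, which guards centromere cohesion, had 0 UMIs in DT and 24 UMIs in PBS, and Timeless, a gene of the replication fork, 18.6 CPM in DT and 7.37 CPM in PBS, 2.53-fold (1.39 to 4.77). In the Ncr1 gate the spindle checkpoint gene Mad2l1 had 23.8 CPM in DT and 11.0 CPM in PBS, 2.17-fold (1.16 to 4.17).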
